A study of Mus musculus with 6 samples.

Results

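Long noncoding RNAs that are prominent in the nervous system, or that carry small RNAs inside their transcripts, were described in the cortex of newborn mice that have 1 working copy of Npas3 (Npas3+/-) and of wild-type (WT) mice. The set held every gene whose symbol is Snhg and a number (small nucleolar RNA host genes, 14 genes), every gene named as a microRNA host (Mir and hg, 10 genes), and 15 further named transcripts such as Malat1, Miat and Sox2ot. Together these were 40 gene entries with 39 symbols, of 53379 genes in the count table. Dlx6os1 has 2 entries, a gene of 5173 exonic bases and a fragment of 146 bases. The name Oip5os1, for the transcript also called Cyrano, is not a symbol of GENCODE M21; the same gene is present as 1700020I14Rik and was counted once. In all, 35 entries had enough reads to be tested. Of these, Snhg11 is annotated as protein coding in GENCODE M21 and belongs to the set by its symbol.

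All 6 libraries came from cortex of the C57BL/6 strain at postnatal day 0. The groups were Npas3+/- (n = 3) and WT (n = 3), and they differed by genotype alone as far as the labels say. Npas3 encodes a transcription factor of the basic helix-loop-helix PAS family. Total RNA was extracted and deeply sequenced, and the labels do not tie each library to an animal of its own. The p-values therefore rest on the spread between these libraries, part of which may be technical.

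Long noncoding RNAs are transcribed and processed like messenger RNAs but encode no known protein. From a host transcript the small nucleolar RNA (snoRNA) or microRNA is excised, often out of an intron, while the exons are spliced and kept or degraded. Many, but not all, box C/D snoRNAs guide the methylation of ribosomal RNA, and many H/ACA snoRNAs guide its pseudouridylation. MicroRNAs repress messenger RNAs that pair with bases 2 to 8 of the mature strand, the seed. In the brain, miR-124 is the dominant microRNA of neurons and miR-9 acts in neural progenitors and neurons. Several other transcripts of the set lie beside or across genes for developmental transcription factors, among them Sox2ot, Dlx6os1, Pantr1 and Pantr2.

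Library totals ran from 67378231 to 87811574 counts. Levels are given as CPM, the counts scaled to library size, and fold changes are log2 values of Npas3+/- over WT with their standard error (SE). Npas3 itself stood at 14.96, 14.1 and 8.61 CPM in Npas3+/- libraries 1 to 3 and at 23.4, 28.4 and 25.7 CPM in WT libraries 1 to 3, so no Npas3+/- library reached a WT library. Its log2 fold change was -1.04 (SE 0.20), with an edgeR adjusted p of 0.27 and a DESeq2 adjusted p of 1.754e-04. Npas3+/- library 2 stood apart by Xist, the RNA of the inactive X chromosome, with 3667 CPM where no other library exceeded 2.03 CPM. Results for the leading genes are therefore also given without Npas3+/- library 2.

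None of the 35 long noncoding RNA genes passed the edgeR quasi-likelihood test at an adjusted p of 0.05, at which 0.0377% of the 21244 genes tested were called (0.0282% higher and 0.00941% lower). The log2 fold changes were positive for 14 and negative for 21, with a median of -0.04, beside -0.01 over all genes tested, of which 51.8% were negative. At an unadjusted p under 0.05 there were 7 of the 35 (20.0%, with 2 higher and 5 lower), beside 12.1% of all genes (6.29% higher and 5.84% lower). The 3 Npas3+/- values lay entirely above or below the 3 WT values for 6 of the 35 (17.1%, with 1 higher and 5 lower), beside 18.9% of all genes (9.7% higher and 9.18% lower). DESeq2, run as an alternative, called 3 of the 35, beside 2.41% of all genes. These were Snhg14 and Snhg1 as lower and Mir124a-1hg as higher in Npas3+/- cortex. Genes of long noncoding biotypes, which include the 35 other than Snhg11, numbered 2646 tested. Of these 1186 were positive and 1460 negative, with a median of -0.05. An unadjusted p under 0.05 was held by 6.65% (61 higher and 115 lower), and 13.6% did not overlap. DESeq2 called 23 of the 2646. The sets were not matched for level.

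**Figure D1:**
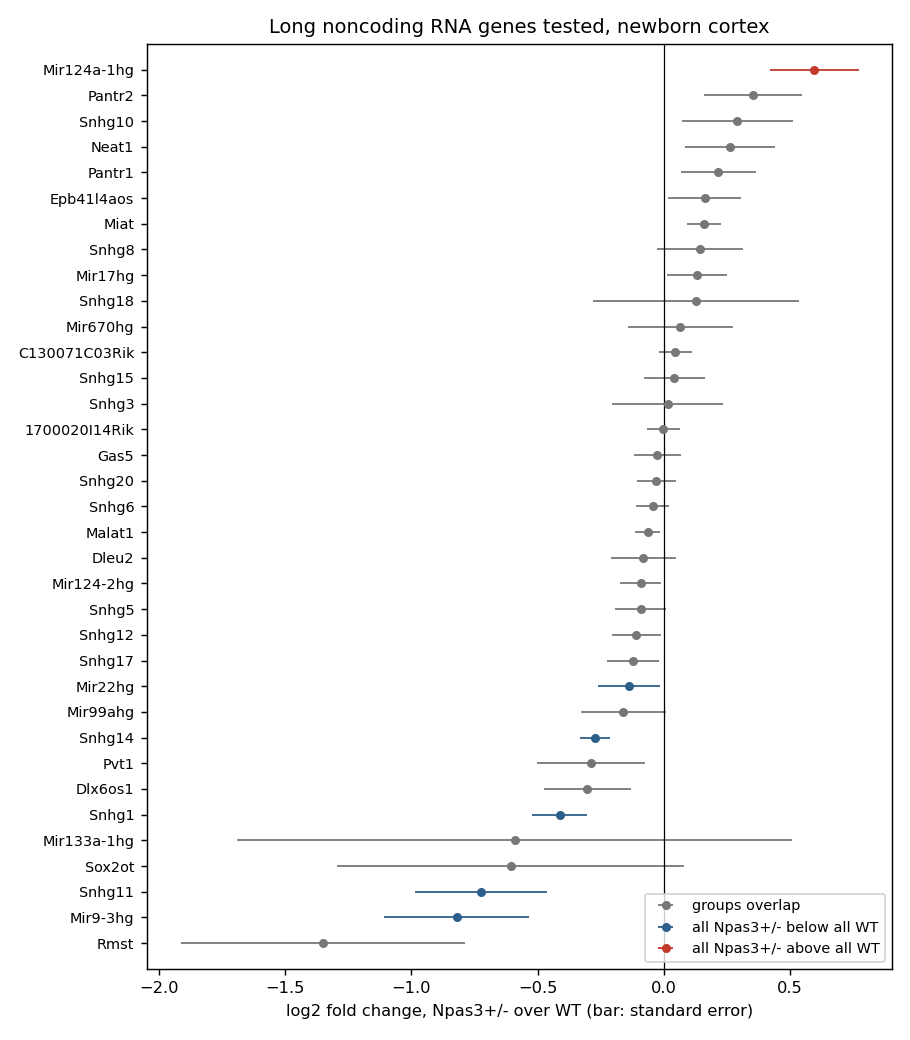
Log2 fold change, Npas3+/- over WT, of each of the 35 long noncoding RNA genes tested (points), with its standard error (bars). Blue and red mark genes whose 3 Npas3+/- libraries lie all below (5 genes) or all above (1 gene) the 3 WT libraries; no gene passed the edgeR threshold.

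Per length of merged exons, which allows genes to be compared, the most abundant transcripts in WT cortex were Malat1 at 224 ± 9.07 CPM per kb (SD, n = 3) and Miat at 184 ± 17.03 CPM per kb (SD, n = 3). Both are retained in the nucleus, Malat1 at the nuclear speckles where splicing factors gather. Next came C130071C03Rik, which carries Mir9-2, at 66.8 ± 5.01 CPM per kb and 1700020I14Rik at 66.7 ± 4.32 CPM per kb (SD, n = 3), which did not differ beyond their spread. Snhg6 at 32.7 ± 0.412 and Mir124a-1hg at 31.0 ± 7.90 CPM per kb (SD, n = 3) were likewise within the spread of the latter. Epb41l4aos, Snhg11, Gas5 and Mir124-2hg completed the first 10, between 18.6 and 25.3 CPM per kb. At the low end of the genes tested were Neat1, the scaffold of paraspeckles, at 0.293 ± 0.0503 CPM per kb and Rmst at 0.0743 ± 0.0374 CPM per kb (SD, n = 3). The 5 entries left untested had 12 or fewer counts in each library: Snhg9, Mir155hg, Mir142hg, Lncpint and the short Dlx6os1 fragment. Lncpint had 4 counts in Npas3+/- library 3 and 0 in the other 5 libraries.

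**Figure D2:**
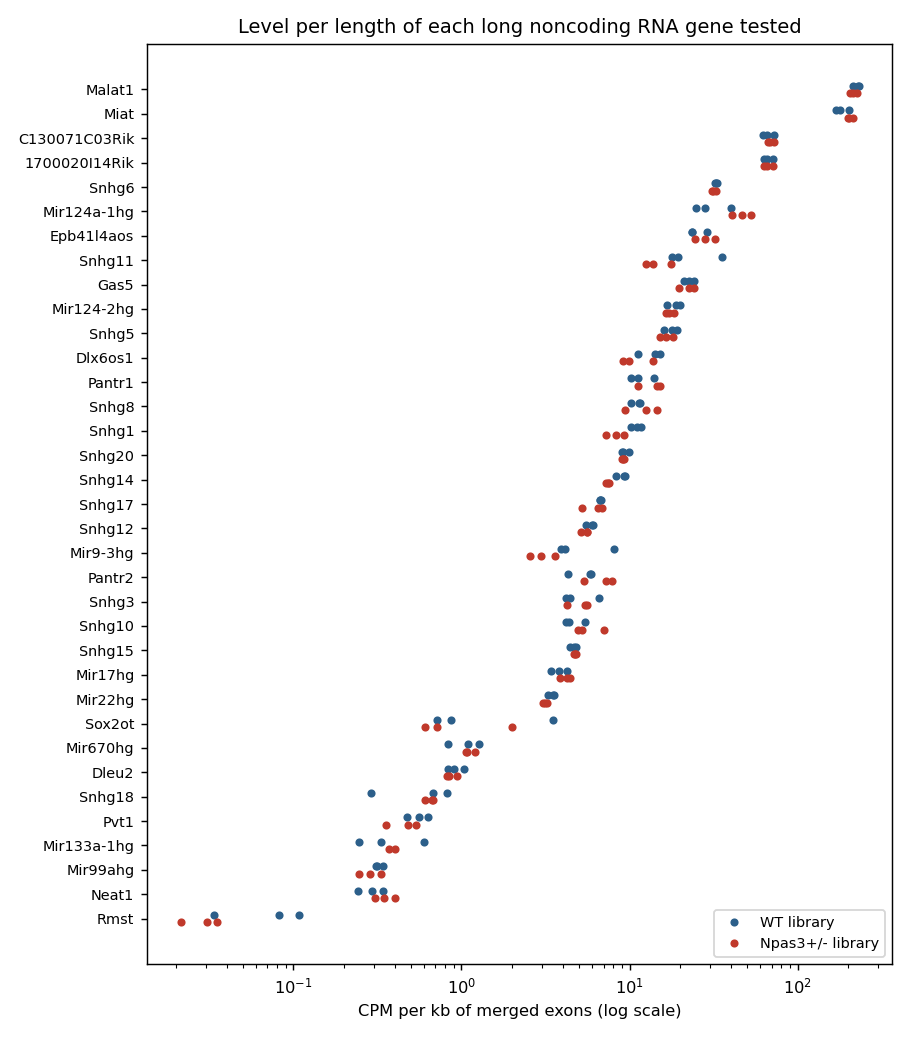
Level of each long noncoding RNA gene tested, in CPM per kb of merged exons on a log axis, with 1 point per library (blue, WT; red, Npas3+/-) and genes ordered by their WT mean. Malat1 and Miat stand highest and Rmst lowest; Mir133a-1hg in Npas3+/- library 2 had 0 counts and has no point.

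Among the snoRNA hosts, Snhg14 and Snhg1 had the smallest p-values. Snhg14 is the long imprinted transcript expressed from the paternal chromosome that runs antisense into Ube3a and carries the clustered Snord115 and Snord116 snoRNAs of the Prader-Willi and Angelman region. The annotation places it at chromosome 7, 59307924 to 59975759, minus strand (mm10). A box C/D snoRNA from an Snhg14 intron and 1 from Snhg1 are shown because they are what these hosts carry; capitals mark the first TGATGA (box C) and the last CTGA (box D).
Snord116l1 (Snhg14, intron, chromosome 7): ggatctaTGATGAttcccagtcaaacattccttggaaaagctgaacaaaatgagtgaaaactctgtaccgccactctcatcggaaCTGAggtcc
Gm24452 (Snhg1, chromosome 19): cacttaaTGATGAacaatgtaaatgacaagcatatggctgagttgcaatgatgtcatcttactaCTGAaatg

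Snhg14 was at 190, 197 and 194 CPM in Npas3+/- libraries 1 to 3 and at 242, 245 and 216 CPM in WT libraries 1 to 3. All Npas3+/- libraries were below all WT libraries and close to each other. The mean in Npas3+/- cortex was 82.8% of WT (log2 fold change -0.27, SE 0.06, edgeR adjusted p = 0.272, DESeq2 adjusted p = 0.026). Without Npas3+/- library 2 the log2 fold change was -0.28. The neighbours of Snhg14 in the imprinted region, chosen after their values were seen, did not pass: Ube3a was at -0.09 (SE 0.08), Snrpn at -0.15 (SE 0.09), Ndn at -0.08 (SE 0.06), Magel2 at -0.10 (SE 0.15), Mkrn3 at -0.10 (SE 0.11) and Peg12 at 0.19 (SE 0.17) on the log2 scale. In each of these 6 genes the libraries of the genotypes overlapped. Exons of Snhg14 and Ube3a share 1803 bases on opposite strands, 6.91% of the exonic length of Snhg14, and whether counting used strand is not given in the sources used here.

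Snhg1 is a short, spliced host whose transcript begins with a pyrimidine-rich start like that of ribosomal protein genes and is degraded by nonsense-mediated decay. It lies at chromosome 19, 8723475 to 8726443, plus strand. In GENCODE M21 its merged exons form 1 block of 2969 bases over this whole span. On that annotation its counts do not separate spliced from unspliced RNA. Its level was 21.4, 24.7 and 27.4 CPM in Npas3+/- libraries 1 to 3 and 32.7, 34.7 and 30.4 CPM in WT libraries 1 to 3. No Npas3+/- library reached the lowest WT library. The mean was 75.1% of WT (log2 fold change -0.41, SE 0.11, edgeR adjusted p = 0.276, DESeq2 adjusted p = 0.032), and -0.42 without Npas3+/- library 2.

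Proteins of the basic helix-loop-helix PAS family bind elements with the core ACGTG together with a partner such as ARNT. The motif ACGTG, searched on both strands in windows from 250 bases before to 50 bases after each RefSeq start (GRCm38.p6), was present in 10 of 36 windows of the long noncoding RNA genes (27.8%), which cover 27 genes. Of all 32851 windows 19.6% held it. Snhg1 held 1 match, while the windows of Snhg11, Mir9-3hg and Miat held none, and Mir124a-1hg had no window. Genes with small fold changes also held matches, with 2 at Snhg15 (log2 fold change 0.04), 2 at Dleu2 (-0.08) and 1 at Malat1 (-0.06). Whether the motif goes with the fold changes was not tested. For 21 of the 27 genes a RefSeq start lies within 1000 bases of the GENCODE start; that of Snhg14 lies 474418 bases upstream of it, so its window says nothing of the counted entry. The Snhg1 window is printed as an example at a host with a small p; its start is 12 bases from the GENCODE start, and capitals mark the match, on the minus strand. No binding was measured in these libraries.
Snhg1 promoter, chr19:8723237-8723536, plus strand: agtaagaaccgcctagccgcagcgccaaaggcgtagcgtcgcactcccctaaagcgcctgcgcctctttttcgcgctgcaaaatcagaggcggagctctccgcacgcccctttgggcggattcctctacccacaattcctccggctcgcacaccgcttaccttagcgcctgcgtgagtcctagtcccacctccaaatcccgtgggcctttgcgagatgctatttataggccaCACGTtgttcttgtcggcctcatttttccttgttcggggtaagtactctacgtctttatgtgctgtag

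Snhg11, a host expressed in neurons, was at 118, 107 and 151 CPM in Npas3+/- libraries 1 to 3 and at 166, 302 and 152 CPM in WT libraries 1 to 3. The groups did not overlap, but Npas3+/- library 3 and WT library 3 were nearly level and WT library 2 stood far above the rest. The log2 fold change was -0.72 (SE 0.26, edgeR adjusted p = 0.351). It was -0.35 without WT library 2 and -0.62 without Npas3+/- library 2.

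For every other snoRNA host the libraries of the genotypes overlapped. Gas5, which is known to accumulate in growth-arrested cells and carries 10 snoRNA genes in this annotation, was at 91.3, 84.9 and 73.6 CPM in Npas3+/- and at 85.3, 78.8 and 90.4 CPM in WT libraries. Those ranges overlapped (log2 fold change -0.03, SE 0.09). With a covariate for striatal markers the log2 fold change of Gas5 was -0.18 (edgeR adjusted p = 0.783). Snhg6 varied least, at 37.3, 36.1 and 35.7 CPM in Npas3+/- and 37.9, 37.5 and 36.9 CPM in WT libraries (-0.04, SE 0.07). Over the 13 Snhg genes tested, 5 were positive and 8 negative with a median of -0.04. Snhg10 stood at 0.29 (SE 0.22, edgeR adjusted p = 0.649), but between 0.11 and 0.42 with each library left out in turn and at 0.05 with a covariate for striatal markers. Exons of Snhg3 share 71.5% of their length with Gm17300 on the opposite strand and 13.7% with Rcc1 on the same strand, so its value (0.01, SE 0.22) is uncertain, and its sign turned when libraries were left out (-0.10 to 0.25).

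**Figure D3:**
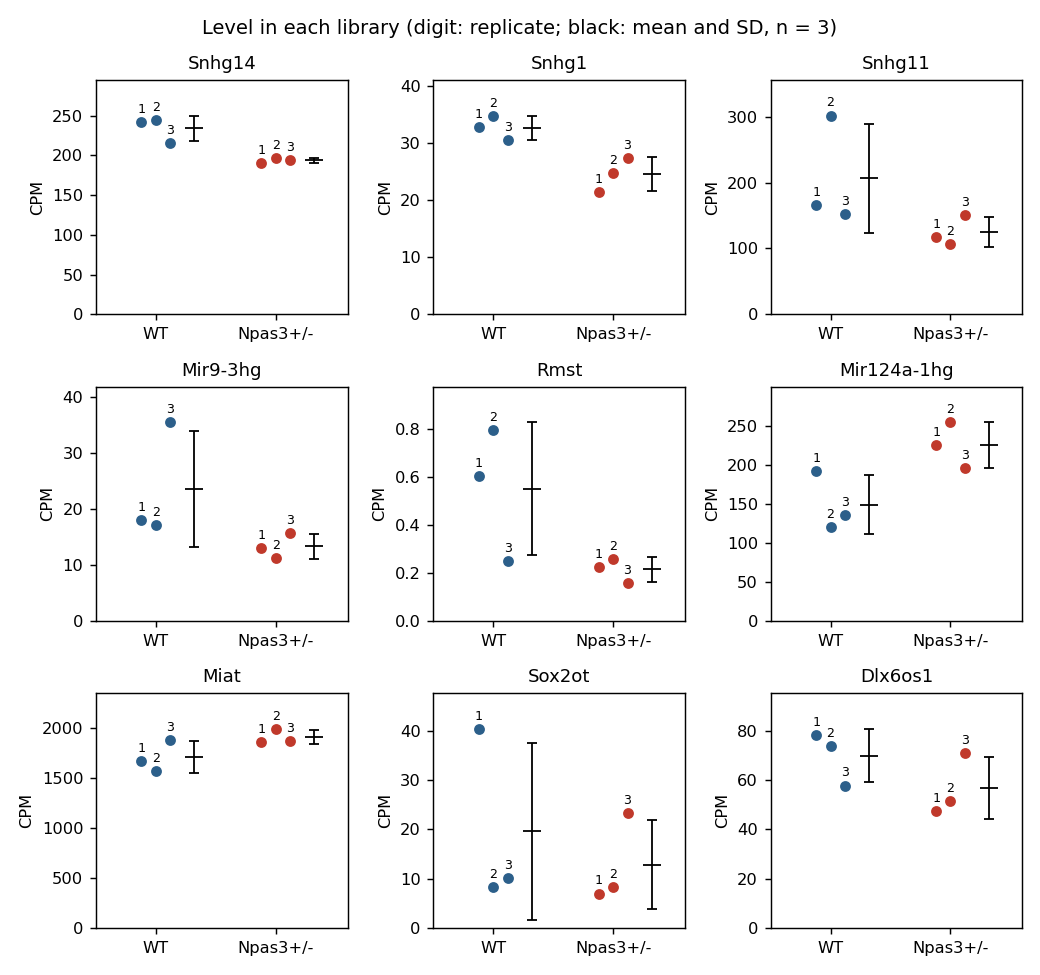
Level in CPM (linear axis from 0) of 9 long noncoding RNA genes in each WT (blue) and Npas3+/- (red) library, numbered by replicate, with the group mean and SD (n = 3) in black. Snhg14 and Snhg1 are lower in every Npas3+/- library, Mir124a-1hg is higher in every one, and Snhg11, Mir9-3hg and Sox2ot each have a single WT library far above the others.

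Of the 8 microRNA hosts tested, 3 had positive and 5 negative fold changes. Mir9-3hg on chromosome 7 and C130071C03Rik on chromosome 13 both carry miR-9 hairpins, and the mature strands of both are identical in the RefSeq table. They are shown with the seed in capitals because the hosts lie on different chromosomes while the mature RNA is the same.
miR-9-5p (Mir9-3hg and C130071C03Rik): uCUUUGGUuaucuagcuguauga
miR-9-3p (Mir9-3hg and C130071C03Rik): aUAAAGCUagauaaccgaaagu

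Mir9-3hg (chromosome 7, 79500026 to 79534403, plus strand) was at 13.0, 11.2 and 15.7 CPM in Npas3+/- libraries 1 to 3 and at 17.9, 17.1 and 35.4 CPM in WT libraries 1 to 3. The groups did not overlap, and WT library 3 was far above the other 5. The log2 fold change was -0.82 (SE 0.29, edgeR adjusted p = 0.343, DESeq2 adjusted p = 0.051). It was -0.39 without WT library 3 and -0.71 without Npas3+/- library 2.

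C130071C03Rik (chromosome 13, 83721381 to 83884194, plus strand) was at 389, 408 and 375 CPM in Npas3+/- and at 372, 353 and 409 CPM in WT libraries. The groups overlapped almost entirely (log2 fold change 0.05, SE 0.06, edgeR adjusted p = 0.827). The log2 ratio of Mir9-3hg to C130071C03Rik was -4.90, -5.18 and -4.58 in Npas3+/- and -4.38, -4.37 and -3.53 in WT libraries. It was lower in each Npas3+/- library than in any WT library, with a difference of -0.80 on average. The exact two-sided permutation p was 0.1, the smallest that 3 against 3 can give. This pair was picked with the hosts' values known, so the p adds no support beyond them. The difference was -0.52 without WT library 3 and -0.65 without Npas3+/- library 2. Neighbouring Mef2c, an activity-related transcription factor of neurons, ranged from 221 to 905 CPM in Npas3+/- and from 545 to 1108 CPM in WT libraries (-0.81, SE 0.54, edgeR adjusted p = 0.608).

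Mir124a-1hg (chromosome 14, 64587331 to 64593961, plus strand) had the largest positive fold change of the set. It was at 225, 254 and 196 CPM in Npas3+/- libraries 1 to 3 and at 192, 120 and 135 CPM in WT libraries 1 to 3. All Npas3+/- libraries were above all WT libraries, although WT library 1 came close to Npas3+/- library 3. The mean was 151.1% of WT (log2 fold change 0.60, SE 0.18, edgeR adjusted p = 0.289, DESeq2 adjusted p = 0.022), and 0.50 without Npas3+/- library 2.

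Mir124-2hg on chromosome 3, the other host of miR-124 tested, was at 104, 111 and 99.2 CPM in Npas3+/- and at 121, 114 and 100.1 CPM in WT libraries. Its groups overlapped and its sign was opposite (-0.09, SE 0.08, edgeR adjusted p = 0.71). The log2 ratio of Mir124a-1hg to Mir124-2hg was 1.11, 1.19 and 0.98 in Npas3+/- and 0.67, 0.07 and 0.43 in WT libraries. Each Npas3+/- ratio exceeded each WT ratio, by 0.71 on average (exact two-sided permutation p = 0.1, again the smallest possible), and by 0.55 without WT library 2. Both ratios were formed from pairs that were picked with the hosts' values known, so neither p adds support beyond those values.

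**Figure D4:**
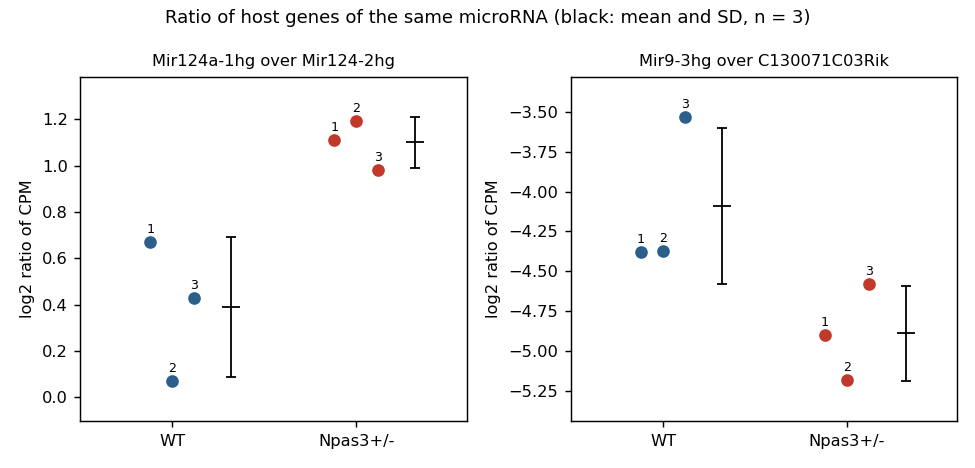
Log2 ratio of the levels (CPM) of host genes of the same microRNA in each library, numbered by replicate, with the mean and SD (n = 3) in black: Mir124a-1hg over Mir124-2hg (left) and Mir9-3hg over C130071C03Rik (right). The Npas3+/- libraries lie above the WT libraries on the left (mean 1.10 against 0.39) and below them on the right (-4.89 against -4.09).

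Mir22hg, the host of miR-22, was at 6.06, 5.89 and 6.20 CPM in Npas3+/- and at 6.78, 6.32 and 6.86 CPM in WT libraries. The groups did not overlap, by a small margin (log2 fold change -0.14, SE 0.12, edgeR adjusted p = 0.708). Its exons share 10.7% of their length with Tlcd2 on the same strand. Mir17hg, Mir99ahg, Mir670hg and Mir133a-1hg overlapped between genotypes, with log2 fold changes of 0.13 (SE 0.12), -0.16 (SE 0.17), 0.07 (SE 0.21) and -0.59 (SE 1.10). The sign of Mir17hg turned with the striatal covariate (-0.026), and that of Mir670hg when libraries were left out (-0.083 to 0.21). Mir133a-1hg had at most 16 counts in a library. Dleu2, the host of miR-15a and miR-16 that is named for a deletion in leukemia, was at 9.35, 9.60 and 10.7 CPM in Npas3+/- and at 11.7, 9.41 and 10.2 CPM in WT libraries (-0.08, SE 0.13), also overlapping.

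The hosts contain 277 annotated microRNA, snoRNA or scaRNA genes on their own strand, of which 51 lie in an exon of some transcript and 226 in introns. Snhg14 alone holds 208 of them. Of the 51 exonic ones, 24 had exactly 1 count in all 6 libraries, against 1 of the 226 intronic ones. In all, 224 of the 53379 genes had exactly 1 count in every library, of which 133 are microRNA and 65 snoRNA genes. How reads or estimates were assigned at such loci is not given in the sources used here, so counts at small RNA genes inside exons may not be read counts of the small RNA. Only 20 of the 277 could be tested and 0 passed edgeR; 2 had an unadjusted p under 0.05, beside 12.1% of all genes.

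Both of those lie in an exon of Mir17hg, the host of the miR-17-92 cluster, an RNA of proliferating cells. The mature strands of the cluster fall into groups by seed, shown in capitals. The first pair below shares the seed AAAGUGC, the second pair shares GUGCAAA, and the last 2 have seeds of their own.
miR-17-5p: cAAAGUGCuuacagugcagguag
miR-20a-5p: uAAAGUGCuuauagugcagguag
miR-19a-3p: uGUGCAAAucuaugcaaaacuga
miR-19b-3p: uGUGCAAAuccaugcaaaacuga
miR-18a-5p: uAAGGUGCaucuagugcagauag
miR-92a-3p: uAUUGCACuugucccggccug

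Mir19a had 1, 1 and 1 counts in Npas3+/- and 31, 18 and 23 counts in WT libraries. Mir20a had 31, 27 and 28 counts in Npas3+/- and 2, 2 and 1 counts in WT libraries. The counts at these neighbouring loci were higher in opposite genotypes, with edgeR adjusted p = 0.27 for each. The low side of each was 1 or 2 counts, and such counts may not be read counts of the small RNA. Mir17 and Mir92-1 had 1 count in all 6 libraries, Mir19b-1 had 11 to 24 counts, and Mir18 had 1 to 28 counts in no order of genotype. The host Mir17hg stood at 15.1, 15.7 and 13.6 CPM in Npas3+/- and 13.4, 12.04 and 15.1 CPM in WT libraries, so the host overlapped where these 2 loci did not.

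In Gas5 and Snhg1, which carry 10 and 8 snoRNA genes, 5 and 6 of these had exactly 1 count in every library. Gm24452, the Snhg1 snoRNA printed above, had 80, 48 and 37 counts in Npas3+/- and 45, 95 and 79 counts in WT libraries (log2 fold change -0.52, SE 0.37, edgeR adjusted p = 0.636), with overlap. Gm25894, the other Snhg1 snoRNA tested, had 51, 42 and 31 counts in Npas3+/- and 54, 57 and 51 counts in WT libraries. Its groups did not overlap (log2 fold change -0.51, SE 0.33, edgeR adjusted p = 0.60). Snord87, in an intron of Snhg6, had 24, 24 and 25 counts in Npas3+/- and 28, 35 and 43 counts in WT libraries, also without overlap (-0.64, SE 0.43, edgeR adjusted p = 0.604). The tested entry of Snora16a, in Snhg12, had 51, 54 and 46 counts in Npas3+/- and 32, 46 and 32 counts in WT libraries. Its lowest Npas3+/- and highest WT library differed only after scaling (0.36, SE 0.34, edgeR adjusted p = 0.721). The other Snora16a entry, at the same place, had exactly 1 count in every library. Snord116l1 had 0 counts in all 6 libraries, and so had 82 of the 208 snoRNA genes in Snhg14. Mir124a-2, in Mir124-2hg, had 13, 20 and 32 counts in Npas3+/- and 10, 8 and 2 counts in WT libraries (log2 fold change 1.6, SE 0.79, edgeR adjusted p = 0.469), without overlap. Of the 20 loci tested, those without overlap were Gm25894, Snord87, Snora16a, Mir124a-2, Mir19a and Mir20a, beside 18.9% of all genes tested. The edgeR unadjusted p was 0.168 for Gm25894, 0.174 for Snord87, 0.315 for Snora16a and 0.0796 for Mir124a-2.

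Malat1, Neat1, Miat and 1700020I14Rik are long RNAs studied for their own activity rather than as hosts. Malat1 (chromosome 19, 5795690 to 5802672, minus strand) was at 1484, 1579 and 1437 CPM in Npas3+/- and at 1596, 1610 and 1494 CPM in WT libraries. The ranges overlapped, and the difference was small (log2 fold change -0.06, SE 0.05, edgeR adjusted p = 0.663). Neat1 was at 8.37, 6.34 and 7.18 CPM in Npas3+/- and at 6.09, 7.12 and 5.03 CPM in WT libraries, with overlap (0.26, SE 0.18, edgeR adjusted p = 0.608). It was 0.15 without Npas3+/- library 1 and 0.15 without WT library 3.

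Miat (chromosome 5, 112213228 to 112229395, minus strand), also called Gomafu, was at 1856, 1986 and 1870 CPM in Npas3+/- and at 1671, 1569 and 1879 CPM in WT libraries. Only WT library 3 reached the Npas3+/- range. The log2 fold change was 0.16 (SE 0.07, edgeR adjusted p = 0.411); it was 0.24 without WT library 3, 0.10 without WT library 2, 0.13 without Npas3+/- library 2 and 0.07 with the striatal covariate. Gm26953 overlaps 24.3% of its exons on the opposite strand. 1700020I14Rik, or Cyrano, which carries a site for miR-7, was at 521, 589 and 549 CPM in Npas3+/- and at 593, 546 and 523 CPM in WT libraries, with group means of 553 and 554 CPM. Its groups coincided (0.00, SE 0.07).

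Of the remaining neural transcripts, Rmst, an RNA of neuronal differentiation, had the largest negative fold change but rested on 12 to 67 counts per library. It was at 0.228, 0.260 and 0.159 CPM in Npas3+/- and at 0.606, 0.798 and 0.251 CPM in WT libraries. WT library 3 lay within the Npas3+/- range. The log2 fold change was -1.35 (SE 0.56, edgeR adjusted p = 0.40). It was -1.50 without Npas3+/- library 2, and Gm26700 overlaps 26.3% of its exons on the opposite strand.

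Sox2ot spans the Sox2 gene on the same strand. It was at 6.99, 8.31 and 23.3 CPM in Npas3+/- and at 40.4, 8.34 and 10.05 CPM in WT libraries. WT library 1 and Npas3+/- library 3 stood far above the other 4, so each genotype had 1 high library. The log2 fold change was -0.61 (SE 0.69, edgeR adjusted p = 0.777) and became 0.49 without WT library 1. Sox2, the progenitor transcription factor inside it, was at 48.8, 42.6 and 57.3 CPM in Npas3+/- and at 57.7, 64.0 and 63.0 CPM in WT libraries. The high libraries of Sox2ot were not the high libraries of Sox2 in WT cortex (log2 fold change of Sox2 -0.31, SE 0.11, edgeR adjusted p = 0.348).

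Dlx6os1, also called Evf2, crosses the Dlx6 gene on the opposite strand with no shared exon and is expressed with the Dlx genes in the ventral forebrain, where GABAergic neurons arise. Its long entry was at 47.3, 51.6 and 71.0 CPM in Npas3+/- and at 78.2, 73.6 and 57.8 CPM in WT libraries. Npas3+/- library 3 was within the WT range and the groups overlapped (log2 fold change -0.30, SE 0.17, edgeR adjusted p = 0.534). It was -0.49 without Npas3+/- library 3, -0.19 without Npas3+/- library 1 and -0.24 without Npas3+/- library 2. Dlx6 was at 3.49, 1.81 and 5.23 CPM in Npas3+/- and at 9.18, 8.94 and 4.14 CPM in WT libraries, and likewise overlapped (-1.08, SE 0.43, edgeR adjusted p = 0.379). Dlx5 (-0.24, SE 0.35), Dlx1 (-0.20, SE 0.11) and Dlx2 (-0.23, SE 0.17) were also negative without passing.

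The levels of Dlx6os1 and Snhg11 are set here beside markers of the ventral forebrain, which differed between libraries of a genotype. Of 19 ganglionic eminence and striatum markers 16 had negative fold changes, with a summed level of 659 to 920 CPM in Npas3+/- and 652 to 1011 CPM in WT libraries, and none was at 0 in all libraries. Their score, the mean log2 deviation from the mean of the libraries, was -1.19, -1.11 and 0.51 in Npas3+/- and 0.96, 1.30 and -0.48 in WT libraries. Interneuron markers were negative for 17 of 19, with a summed level of 726 to 984 CPM in Npas3+/- and 975 to 1132 CPM in WT libraries, again with none at 0. In a fit with the striatal score as a covariate, the log2 fold change was 0.01 for Dlx6os1, -0.29 for Snhg11, -0.21 for Snhg14, -0.27 for Snhg1, -0.87 for Rmst, -0.98 for Mir9-3hg, 0.07 for Miat and 0.52 for Mir124a-1hg. In that fit 0 of the 35 genes passed edgeR. The score itself went partly with genotype, so the fit cannot separate the score from genotype. In bulk tissue, fewer cells of a type and less RNA per cell cannot be told apart.

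**Figure D5:**
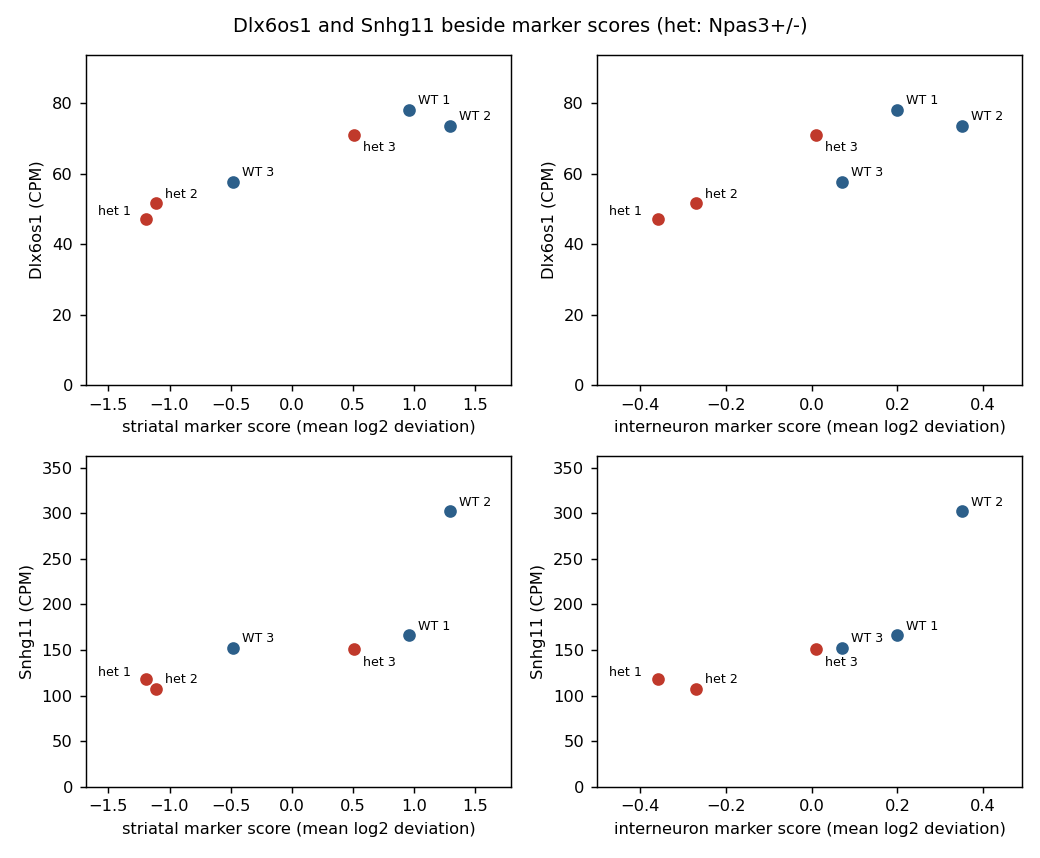
Level in CPM of Dlx6os1 (top) and Snhg11 (bottom) in each library against the striatal (left) and interneuron (right) marker scores, the mean log2 deviation of the markers from their mean over libraries. Npas3+/- (het, red) libraries 1 and 2 are lowest on both axes, and Npas3+/- library 3 lies close to WT libraries (blue) in each panel.

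Pantr1 and Pantr2 flank Pou3f3, a transcription factor of upper-layer neurons. Pantr1 was at 64.8, 50.3 and 68.0 CPM in Npas3+/- and at 45.4, 50.3 and 61.9 CPM in WT libraries, with overlap (log2 fold change 0.22, SE 0.15, edgeR adjusted p = 0.613). Pantr2 was at 9.15, 9.84 and 6.73 CPM in Npas3+/- and at 7.39, 5.41 and 7.36 CPM in WT libraries, also with overlap (0.35, SE 0.20, edgeR adjusted p = 0.523). Pantr1 ranged from 0.12 to 0.36 and Pantr2 from 0.22 (without WT library 2) to 0.51 with libraries left out in turn, and Pantr2 was at 0.06 with the striatal covariate. Pou3f3 was at 0.17 on the log2 scale (SE 0.08, edgeR adjusted p = 0.448), and Pou3f2, on another chromosome, at 0.27 (SE 0.12, edgeR adjusted p = 0.421). Pvt1, downstream of Myc, was at 2.48, 3.74 and 3.35 CPM in Npas3+/- and at 3.33, 4.42 and 3.93 CPM in WT libraries, with overlap (-0.29, SE 0.21). It was -0.13 without Npas3+/- library 1 and -0.18 without WT library 2, while Myc was at -0.02 (SE 0.10).

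Genes for proteins that make, hold or degrade these RNAs were read as lists, together with neighbours and cell markers. Of the 261 genes tested in all lists, which include the member Snhg11, 0 passed edgeR. An unadjusted p under 0.05 was held by 58 (22.2%), beside 12.1% of all genes. Such p-values were held by 3 of 17 snoRNA-protein and assembly, 1 of 17 microRNA and 2 of 17 paraspeckle and speckle genes. Decay factors gave 3 of 16 and translation genes 1 of 16. The highest shares were in mitochondrially encoded (9 of 13), astrocyte (6 of 10) and radial glia (8 of 15) genes. DESeq2 called 13 (4.98%), beside 2.41% of all genes. Among 17 snoRNA-protein and assembly genes 10 were positive, with a median of 0.04. Nop58, a core box C/D protein, was at -0.17 (SE 0.07), while its partner Nop56 was at 0.14 (SE 0.06). Of 17 microRNA processing and effector genes 13 were positive, with a median of 0.04; Tnrc6a, an Argonaute partner in silencing, had the smallest p and stood at 0.23 (SE 0.06, edgeR adjusted p = 0.276). Of 17 paraspeckle and speckle protein genes 8 were positive with a median of -0.04, and Srrm2, a scaffold of nuclear speckles, was at 0.23 (SE 0.07, edgeR adjusted p = 0.286).

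Nonsense-mediated decay degrades spliced snoRNA host transcripts such as Gas5 and Snhg1. Of its 16 factors 9 were positive, with a median of 0.02. Upf1, the central helicase, was at 92.7, 85.3 and 86.0 CPM in Npas3+/- and at 74.5, 72.1 and 74.6 CPM in WT libraries, without overlap (log2 fold change 0.25, SE 0.06, edgeR adjusted p = 0.276, DESeq2 adjusted p = 0.028). Dhx34 (0.37, SE 0.10) and Smg9 (0.23, SE 0.07) were likewise higher in every Npas3+/- library. In all, 5 of the 16 did not overlap (31.25%), with 3 higher and 2 lower in Npas3+/- cortex, beside 18.9% of all genes. Of 16 translation genes with pyrimidine-rich starts or functions 12 were negative, with a median of -0.04; Npm1, a nucleolar chaperone, was at -0.19 (SE 0.04, edgeR adjusted p = 0.272, DESeq2 adjusted p = 0.048). Other brain long noncoding RNAs were negative for 16 of 21, with a median of -0.21, among them the antisense transcript Dlx1as (-0.36, SE 0.09, edgeR adjusted p = 0.276, DESeq2 adjusted p = 0.042).

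Markers of other cell types differed between libraries without passing edgeR. Radial glia markers were negative for 13 of 15, with summed levels of 1418 to 1716 CPM in Npas3+/- and 1872 to 1994 CPM in WT libraries and a score of -0.25, -0.31 and 0.07 against 0.15, 0.15 and 0.19. Astrocyte markers were negative for 9 of 10 and microglia markers for 12 of 12, while projection neuron markers were positive for 10 of 14 and oligodendrocyte lineage markers for 7 of 8. All 13 mitochondrially encoded genes were negative, with a summed level of 25980 to 28220 CPM in Npas3+/- and 29340 to 30550 CPM in WT libraries. The part of these differences in the levels of Snhg14, Snhg1, Mir124a-1hg and Mir9-3hg was not tested. The striatal score went partly with genotype, so the fit with it as a covariate does not measure such a part.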

How the data were processed

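The 40 long noncoding RNA entries and all gene lists were chosen with earlier results of these data known. Deposited whole-number counts per gene were used as given; per the submitters' processing notes the tools were Trimmomatic 0.3.8, HISAT2 2.1.0 and featureCounts with mm10. Annotation, strand setting and the handling of multiply mapped reads are not given in the sources used here. Of 53379 identifiers 53274 matched GENCODE M21. Column names beginning NP were read as Npas3+/-.

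Counts were tested with edgeR 4.0.16 (R 4.3.3): filterByExpr, TMM scaling, quasi-likelihood, genotype as the only term, and Benjamini-Hochberg adjustment over 21244 genes at 0.05. CPM used TMM-scaled totals, and merged exons gave lengths. The biological coefficient of variation was 26.1%. DESeq2 1.42.0, limma-voom (limma 3.58.1), other scalings and filters, a replicate block, a striatal covariate and libraries left out in turn were alternatives. Genes named in full were those at an unadjusted p under 0.05, those without overlap between genotypes, the 8 with the highest CPM and listed transcripts; from lists, up to 4 genes with the smallest p. The fit was tested on simulated data. Sequences are from RefSeq (GRCm38.p6) for 13 hosts with 42 mature microRNA names, and from GENCODE M21 transcripts for snoRNAs.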

Additional observations from a re-analysis of the deposited data

How the results depend on the processing

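The count of long noncoding RNA genes called was 0 under each alternative except DESeq2, which called 3. Over all genes tested edgeR called 8, DESeq2 511 (283 higher and 228 lower) and a fit with a replicate block 3; leaving out each replicate in turn gave 7 to 16, the highest without WT replicate 1. DESeq2 called 13 genes over the context lists. Replicate numbers did not pair the samples (same-numbered correlations 0.0368, -0.03 and -0.0879), and the block called 0 of the long noncoding RNA genes. With the striatal score as a covariate the sign turned for Sox2ot (0.20), 1700020I14Rik (0.032), C130071C03Rik (-0.047), Dlx6os1 (0.011), Mir17hg (-0.026), Epb41l4aos (-0.054), Snhg8 (-0.076) and Snhg18 (-3.102e-04). Leaving out each replicate in turn, the sign also turned for Sox2ot (-1.35 to 0.49), 1700020I14Rik (-0.049 to 0.050), C130071C03Rik (-2.62e-05 to 0.11), Dleu2 (-0.152 to 0.0103), Gas5 (-0.097 to 0.060), Mir670hg (-0.083 to 0.21), Snhg3 (-0.098 to 0.25), Snhg18 (-0.21 to 0.43) and Snhg20 (-0.057 to 0.015). Leaving out libraries for the host ratios was chosen after seeing the data. The cause of these changes was not tested. With the longest transcript as length, 9 of the 10 most abundant genes per kb were the same. With 3 libraries a group, outlying libraries were not tested, and loci with 1 to 3 counts carry no usable fold change.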
